A study of Rattus norvegicus with 45 samples.

Results

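Livers of 5 rats killed 24 h after an oral dose of vehicle (vehicle 24 h) were compared with livers of 5 rats killed at 0 h, before any dose (baseline). The 10 arrays were taken by their sample titles from the 45 arrays of the series, which also covers acetaminophen, and all 13877 genes of the deposited table were tested. Every animal was a male Sprague-Dawley rat, 5 weeks old, that had been fasted for 16 h before time 0. Vehicle 24 h animals had been gavaged with 1% hydroxyethylcellulose, a thickening agent, and the study states that food was reintroduced after the fast. Baseline animals received no gavage, no vehicle and no food before the liver was taken. The collections were 24 h apart and so fell at the same nominal time of day, but the clock hour and the hour of refeeding are not given in the sources used here. Access to food, the gavage with its vehicle, and the extra day of age differ together between the groups and cannot be told apart. Vehicle rats killed at 3 h and 9 h (5 each) were used to show which genes differed between 24 h and the earlier times.

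A fasted liver burns fatty acids released by adipose tissue, makes ketone bodies and exports newly made glucose, a programme driven by the fatty acid receptor Ppara and by glucagon. After a meal, insulin and glucose switch the organ to glucose uptake, glycogen storage, glycolysis and fatty acid synthesis through the transcription factors Srebf1 (SREBP-1) and Mlxipl (ChREBP), while the sterol sensor SREBP-2 sets cholesterol synthesis. Liver is also paced by a circadian clock that responds to the time of feeding.

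Each array gave 1 log2 intensity per gene, so a difference of 1 is a 2-fold change and levels of different genes on this scale are not compared. Values ran from 3.48 to 15.07, and none was missing. Pearson correlations across genes were 0.99 to 0.994 among vehicle 24 h arrays, 0.993 to 0.996 among baseline arrays, and 0.971 to 0.981 between the groups. The first principal component of the 10 arrays held 62.1% of the variance and separated the groups, whereas they overlapped on the second (8.54%). The median SD of a gene was 0.115 at vehicle 24 h and 0.101 at baseline. Of 10 hepatocyte markers, 0 rose and 1 fell (Apob, -0.61, or -0.58 and not called without vehicle 24 h replicate 4), and their mean level was 13.39 to 13.45 at vehicle 24 h and 13.56 to 13.58 at baseline. No marker of neutrophils, Kupffer cells, lymphocytes, endothelial cells, erythroid cells or pancreas passed in limma. An unadjusted limma p under 0.05 was found for 5 of 12 Kupffer cell and macrophage markers and 0 of 13 pancreas markers. Over all 13877 genes, 4890 had such a p. The number of Kupffer cell and macrophage markers called lower was 2 and 3 under the centrings on 2 and on 10 ribosomal protein genes, 1 with array weights, 1 without baseline replicate 2 and 2 without baseline replicate 5. Of 15 stellate cell and fibroblast markers, 2 rose and 1 fell (20% called, against 6.55% of all genes), with a median of 0.03. In bulk liver, fewer cells of a type and less RNA per cell cannot be told apart.

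Between vehicle 24 h and baseline, 909 genes (6.55% of those tested) were called, which required a limma adjusted p below 0.05 together with a fold change of 1.5 or more. Of these, 503 (3.62%) were higher and 406 (2.93%) were lower at vehicle 24 h. Counts of list members below are to be read against these shares of all genes. The genes with the largest differences were chosen among calls whose groups did not overlap, so their lack of overlap follows from that choice. The direction split depended on the scale. When arrays were centred on 10 ribosomal protein genes, which moved the median of all genes by -0.0948, 387 genes were higher and 564 lower, and when they were centred on the 2 measured genes of a ribosomal list, 407 were higher and 526 lower. Rose and fell are used below only of genes that passed both limits. Each difference is log2 vehicle 24 h minus baseline ± SE with n = 5 animals per group, and adjusted p-values are limma's after Benjamini-Hochberg over all genes. Animals are listed in the order of their replicate numbers.

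**Figure D1:**
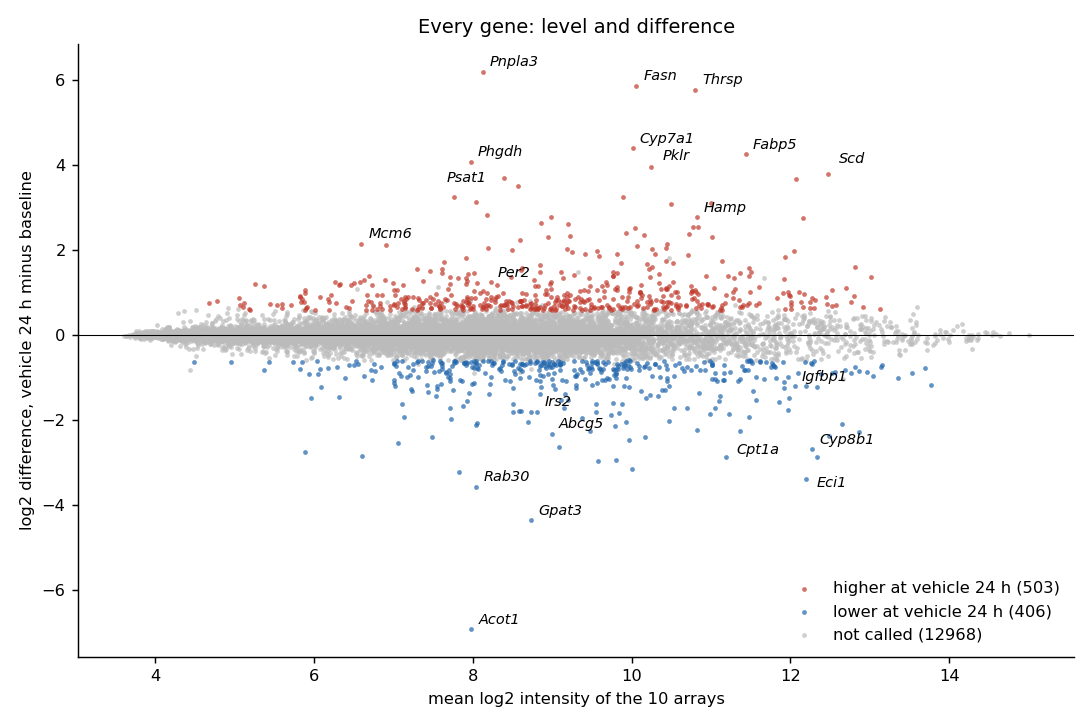
Each point is 1 of 13877 genes. The horizontal axis is the mean log2 intensity of the 10 arrays and the vertical axis is the log2 difference, vehicle 24 h minus baseline. Red points (503) were higher and blue points (406) lower at vehicle 24 h. Pnpla3 (6.19), Fasn (5.87) and Thrsp (5.78) lie at the top and Acot1 (-6.90) and Gpat3 (-4.34) at the bottom.

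Genes of fat synthesis were among those that rose most. Among all genes tested the largest increase was in Pnpla3, which encodes a lipid droplet protein and is a target of SREBP-1. It measured 10.67, 12.48, 9.73, 11.57 and 11.66 in vehicle 24 h livers, against 5.00, 4.94, 5.07, 5.09 and 5.04 in baseline livers (6.19 ± 0.39, 73.2-fold, adjusted p = 4.15e-07). Every vehicle 24 h animal lay far above every baseline animal, and the vehicle 24 h animals themselves were spread widely. Fasn, the fatty acid synthase, measured 12.54 to 13.39 in vehicle 24 h livers, against 7.53, 6.95, 7.10, 7.07 and 6.95 in baseline livers (5.87 ± 0.15, 58.6-fold, adjusted p = 1.82e-10). Thrsp, a small protein known to be induced with lipogenesis, measured 13.74, 14.03, 13.52, 13.43 and 13.74 at vehicle 24 h and 7.98, 8.01, 7.61, 8.15 and 7.80 at baseline (5.78 ± 0.12, adjusted p = 2.58e-11). For both genes the lowest vehicle 24 h animal lay far above the highest baseline animal.

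Of 22 measured lipogenic enzymes (23 listed), 18 rose and 1 fell, with a median difference of 1.34, where the median of all genes was -0.0061. Along the pathway, Acly, which makes cytosolic acetyl-CoA from citrate, rose by 3.67 ± 0.07, the acetate-activating Acss2 by 2.55 ± 0.14, and the acetyl-CoA carboxylases Acaca and Acacb by 1.31 ± 0.16 and 2.04 ± 0.16. The enzymes that supply NADPH rose too, namely Me1 (3.08 ± 0.25) and Pgd (2.39 ± 0.14), and so did Tkt (1.74 ± 0.08) and Taldo1 (0.77 ± 0.07) of the pentose phosphate pathway. Scd, the desaturase that makes oleate, measured 14.25 to 14.46 at vehicle 24 h and 9.90 to 11.16 at baseline (3.79 ± 0.21), which puts the vehicle 24 h values near the top of the array's range. Fads1 (1.37 ± 0.10) and Fads2 (1.01 ± 0.10), which make polyunsaturated fatty acids, rose as well. The member that fell was Elovl2 (-1.43 ± 0.12), which elongates long polyunsaturated fatty acids. Elovl5 (-0.42 ± 0.10), Scd2 (0.42 ± 0.11) and Idh1 (0.16 ± 0.05) did not pass. Outside the list, the fatty acid binding protein gene Fabp5 rose by 4.25 ± 0.22. Near-identical copies such as Scd and Scd2, or the Acot and Cyp4a families below, can share probe signal, and their separate values are uncertain to that extent.

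Among 13 measured regulators of lipogenesis (16 listed), 6 rose and 1 fell (median 0.52). Srebf1, the SREBP-1 gene, measured 11.62, 11.55, 10.96, 11.18 and 11.40 at vehicle 24 h and 8.76, 8.85, 9.49, 8.50 and 9.26 at baseline (2.37 ± 0.18, adjusted p = 2.47e-06), with no overlap. Mlxipl, the glucose-sensing ChREBP gene, rose by 1.34 ± 0.10, Mid1ip1, a partner of Thrsp, by 2.51 ± 0.25, and Lpin1, which acts in triglyceride synthesis and as a coactivator of fat oxidation, by 1.37 ± 0.33. Pnpla3 and Thrsp were the other 2 that rose. Insig2, which holds SREBP in the endoplasmic reticulum and whose liver transcript is known to be lowered by insulin, fell (-1.24 ± 0.15). The liver X receptor gene Nr1h3 (0.52 ± 0.07) and the SREBP escort Scap (0.50 ± 0.07) had adjusted p-values of 0.00021 and 0.00035 but lay under 1.5-fold. Nr1h2 (-0.52 ± 0.08), Usf2 (-0.27 ± 0.09), Usf1 (-0.15 ± 0.06) and Mlx (-0.11 ± 0.08) did not pass either, although Nr1h2 passed as lower under both ribosomal centrings (-0.593 and -0.610).

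**Figure D2:**
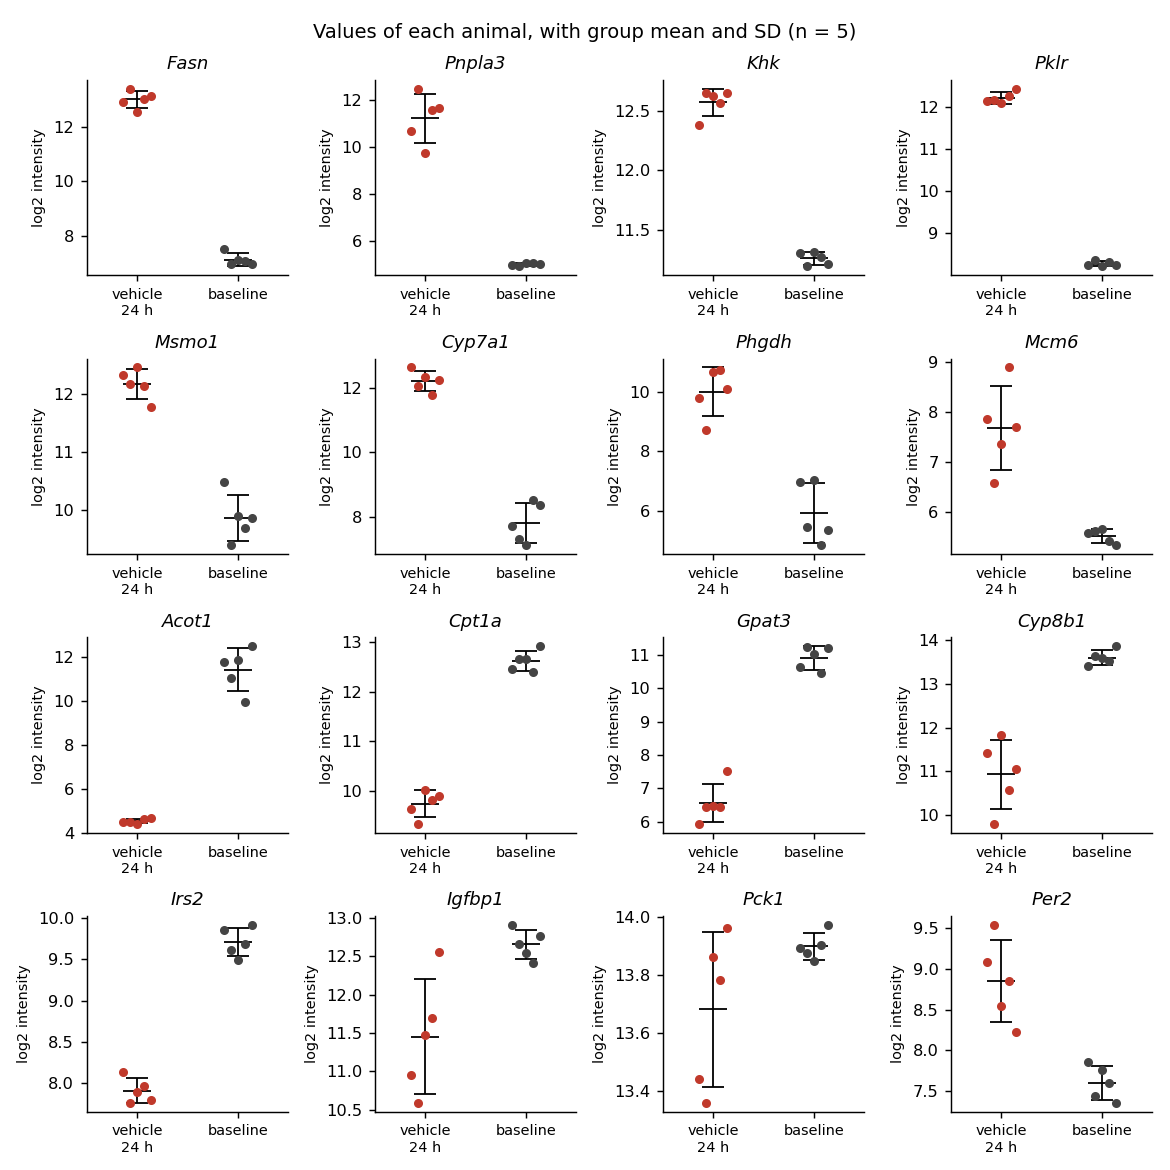
Each panel shows 1 gene and each point 1 animal, with vehicle 24 h (red) left of baseline (grey). The vertical axis is log2 intensity with its own range in each panel, and bars are the group mean and SD (n = 5). In 14 of the 16 panels the groups do not overlap, and they overlap for Igfbp1 and Pck1.

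Some genes of glucose and fructose use rose, while others did not. Khk, the fructokinase that starts fructose breakdown, measured 12.38, 12.65, 12.62, 12.57 and 12.65 in vehicle 24 h livers and 11.30, 11.19, 11.31, 11.27 and 11.21 in baseline livers (1.32 ± 0.06, 2.49-fold, adjusted p = 3.7e-08). Pklr, liver pyruvate kinase and a ChREBP target, measured 12.09 to 12.44 at vehicle 24 h and 8.22 to 8.36 at baseline (3.95 ± 0.07, 15.5-fold). Of 21 measured glycolysis and glycogen genes (29 listed), 10 rose and 2 fell, with a median of 0.57. Pfkl, the liver phosphofructokinase of glycolysis, fell (-0.67 ± 0.15, adjusted p = 0.00665) and did not pass without vehicle 24 h replicate 2 (-0.53) or baseline replicate 5 (-0.57). The glycolytic Pgk1 (0.02 ± 0.06) and Aldoc (-0.06 ± 0.06), and Pfkfb1 (0.53 ± 0.09), Pfkfb2 (0.01 ± 0.05) and Pfkfb3 (-0.16 ± 0.06), which set the level of an activator of phosphofructokinase, were not called. The glucose transporter Slc2a2 (1.03 ± 0.06) and Gpi (1.05 ± 0.12) were among those that rose, and Tkfc, which handles the glyceraldehyde made from fructose and is not in the list, rose by 3.12 ± 0.10.

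Within glycogen metabolism, genes of synthesis and of breakdown both rose. Ppp1r3b, which targets a phosphatase to glycogen, rose by 2.34 ± 0.14, the branching enzyme Gbe1 by 1.98 ± 0.07, Ugp2, which makes the UDP-glucose donor, by 0.94 ± 0.05, and the phosphorylase Pygl by 1.58 ± 0.07. The glycogen synthase gene Gys2 measured 10.44 to 10.86 at vehicle 24 h and 11.15 to 12.31 at baseline and fell (-1.05 ± 0.17, adjusted p = 0.000855). Gys2, Gbe1 and Pygl passed in the same direction under both ribosomal centrings.

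Genes that store or release triglyceride moved mostly the other way. Of 20 measured members (24 listed), 1 rose and 7 fell, with a median of -0.39. Gpat3, a glycerol-phosphate acyltransferase of the endoplasmic reticulum, measured 5.93, 6.44, 6.48, 6.44 and 7.52 at vehicle 24 h and 10.63, 11.23, 11.01, 10.45 and 11.20 at baseline (-4.34 ± 0.25, adjusted p = 2.26e-07). Gpam, the mitochondrial enzyme for the same step, moved in the opposite direction and rose by 1.30 ± 0.16. The lipid droplet genes Plin5 (-1.25 ± 0.10), Cidea (-1.36 ± 0.17) and Hilpda (-1.04 ± 0.12), and Dgat1, which makes triglyceride (-0.83 ± 0.07), fell. Lpin2 rose (0.83 ± 0.15), and the lipases Mgll (-0.58 ± 0.08) and Lipe (-0.41 ± 0.08) did not pass, although Mgll passed without vehicle 24 h replicate 4 (-0.65) or baseline replicate 5 (-0.60).

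Nearly the whole cholesterol synthesis pathway was higher at vehicle 24 h. Of 17 measured members (21 listed), 16 rose and 0 fell, with a median of 1.14, and 1 member, Ggps1, which makes the geranylgeranyl side product, did not pass (-0.13 ± 0.06). Msmo1, a sterol methyl oxidase of the pathway, measured 12.33, 12.17, 12.46, 12.14 and 11.77 at vehicle 24 h and 10.48, 9.38, 9.89, 9.68 and 9.85 at baseline (2.32 ± 0.18, 4.99-fold, adjusted p = 2.64e-06), with no overlap. The largest difference of the list was in Idi1 (2.64 ± 0.24), while Dhcr7 rose by 2.05 ± 0.14 and Sqle by 2.03 ± 0.19. In the list of cholesterol uptake and export (20 measured), 2 rose and 5 fell, and 4 rose without vehicle 24 h replicate 2. Abcg5 (-2.32 ± 0.08) and Abcg8 (-1.19 ± 0.08), the paired subunits of the pump that puts sterols into bile, fell together, as did Scarb1, the HDL receptor (-1.04 ± 0.11), and Apoa5 (-0.88 ± 0.07).

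A sterol response element was looked for in RefSeq promoters (assembly GRCr8), since these genes rose together. The element TCACCCCAC, read on either strand, occurred in 0 of 13 cholesterol genes with a promoter in the table and in 0.484% of all 33469 promoters. The shorter CACCCCAC was chosen after that result was seen. It occurred in 1 of 31 promoters of lipogenic enzymes and regulators (3.23%, against 2.7% of all promoters), that of Idh1, which did not pass. Among the cholesterol genes it occurred in 1 of 13 (7.69%), which was Ebp, a sterol isomerase that rose by 0.74 ± 0.09. The Ebp stretch shown here, chrX:16971212-16971361 on the plus strand (-250 to -101 from the gene start), has that match in capitals.
Ebp: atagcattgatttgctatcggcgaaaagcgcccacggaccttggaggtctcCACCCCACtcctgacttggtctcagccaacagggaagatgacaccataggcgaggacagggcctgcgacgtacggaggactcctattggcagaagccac

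Fatty acid oxidation fell as a group. Of 40 measured Ppara target and fat oxidation genes (43 listed), 0 rose, 29 fell and 11 did not pass, with a median of -0.97 and every member's difference below 0. Acot1, an acyl-CoA thioesterase, had the largest decrease of all genes. It measured 4.48, 4.49, 4.39, 4.61 and 4.66 in vehicle 24 h livers, near the lowest values on the arrays, against 11.78, 11.04, 11.87, 9.97 and 12.49 in baseline livers (-6.90 ± 0.36, adjusted p = 1.03e-07). Its relatives Acot2 (-3.15 ± 0.15), Acot4 (-2.40 ± 0.18) and Acot3 (-2.39 ± 0.24) fell as well. Cpt1a, the enzyme that commits fatty acids to mitochondrial oxidation, measured 9.65, 9.34, 10.02, 9.83 and 9.91 at vehicle 24 h and 12.46, 12.67, 12.67, 12.40 and 12.91 at baseline (-2.87 ± 0.13, adjusted p = 3.37e-08). The groups did not overlap for either gene.

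The genes that fell belong to several steps of the pathway. Carnitine import and transfer fell in Slc22a5 (-2.47 ± 0.10), Slc25a20 (-1.31 ± 0.05), Cpt2 (-0.97 ± 0.05) and Crot (-2.22 ± 0.21). In the oxidation of unsaturated fatty acids, Eci1 measured 10.20 to 10.72 at vehicle 24 h and 13.79 to 13.95 at baseline (-3.39 ± 0.09), and Ech1 fell by 2.86 ± 0.08. The trifunctional protein subunits Hadha (-0.97 ± 0.06) and Hadhb (-1.21 ± 0.07) and the peroxisomal Ehhadh (-2.37 ± 0.10) fell. Omega-oxidation fell in Cyp4a1 (-2.09 ± 0.10) and Cyp4a3 (-2.27 ± 0.10). Pdk4, which blocks glucose oxidation in fasting, fell by 1.38 ± 0.15. The dehydrogenases Acadl (-0.53 ± 0.08) and Acadm (-0.54 ± 0.08), and Acadvl (-0.46 ± 0.05) with Acsl1 (-0.46 ± 0.05), stayed under 1.5-fold, although Acadm passed without vehicle 24 h replicate 1 (-0.59), and when arrays were centred on 2 and on 10 ribosomal genes both Acadl (-0.61 and -0.62) and Acadm (-0.62 and -0.64) passed as lower. Ppara itself lay close to the limit (-0.62 ± 0.12) and did not pass without vehicle 24 h replicate 1 (-0.57), vehicle 24 h replicate 2 (-0.58), baseline replicate 1 (-0.58) or baseline replicate 5 (-0.54).

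Gluconeogenesis did not move as a block. Of 26 measured members (27 listed), 3 rose and 7 fell, with 1 that rose without vehicle 24 h replicate 3, and the median was 0.05, which lies within the shift that ribosomal centring makes. Pck1, the cytosolic PEP carboxykinase and a standard fasting gene, measured 13.44, 13.36, 13.86, 13.78 and 13.96 at vehicle 24 h and 13.89, 13.88, 13.85, 13.90 and 13.97 at baseline. The groups overlapped and the difference did not pass (-0.22 ± 0.11, 95% interval -0.45 to 0.02, adjusted p = 0.174). G6pc, the glucose-6-phosphatase that releases glucose, measured 12.38 to 13.54 at vehicle 24 h and 13.79 to 14.06 at baseline and fell (-0.89 ± 0.18, adjusted p = 0.00349). Entry points fell as well, namely Pc (-1.02 ± 0.09), the glycerol kinase Gk (-1.56 ± 0.17) and the aminotransferases Gpt (-1.03 ± 0.19) and Got1 (-1.09 ± 0.19). Gpd1, which joins glycerol and glycolysis, rose by 0.72 ± 0.11.

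Insulin signalling genes changed at the receptor end and among binding proteins. Irs2, the insulin receptor substrate that is raised in fasted liver, measured 8.13, 7.76, 7.90, 7.97 and 7.80 at vehicle 24 h and 9.85, 9.61, 9.49, 9.68 and 9.91 at baseline (-1.80 ± 0.09, adjusted p = 8.83e-08). Insr, the insulin receptor, fell by 0.65 ± 0.06. Igfbp1, an insulin-repressed gene whose secreted product binds IGFs, measured 10.96, 10.59, 11.48, 11.69 and 12.55 at vehicle 24 h and 12.91, 12.66, 12.55, 12.41 and 12.77 at baseline. Replicate 5 of vehicle 24 h lay inside the baseline range, and the difference passed (-1.20 ± 0.29, adjusted p = 0.00862). Igfbp2 fell by 1.42 ± 0.27, Igfals, which stabilises circulating IGF-1, rose by 0.79 ± 0.17 with overlapping groups, and Pik3r1, a regulatory subunit of PI 3-kinase, rose by 0.89 ± 0.12. Ddit4, a stress-induced brake on mTORC1, rose by 1.56 ± 0.27.

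In that list of 28 measured genes, 3 rose, 4 fell and 21 did not pass. Those with the largest differences among the 21 were Grb14 (-0.52 ± 0.07), Igfbp3 (-0.52 ± 0.08) and Igfbp7 (-0.50 ± 0.09), and all of them passed as lower when arrays were centred on 10 ribosomal protein genes, which brought the number that fell to 7. Igf1 (0.40 ± 0.07), Akt1 (0.40 ± 0.08), Eif4ebp1 (0.38 ± 0.12), Grb7 (-0.38 ± 0.06), Irs1 (-0.35 ± 0.08) and Eif4ebp2 (-0.27 ± 0.08) lay under 1.5-fold. Socs1 (-0.15), Akt2 (-0.14), Pik3ip1 (-0.13) and Foxo3 (-0.12) lay nearer to 0. Trib2, Igfbp4, Trib1, Igfbp5, Igf1r, Sesn3, Sesn1 and Grb10 differed by less than 0.1 in either direction and have no settled sign.

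The FoxO factors, which insulin inhibits, bind an insulin response element, so the promoters of the called decreases in the insulin, gluconeogenesis and fat oxidation lists were read for it. The form CAAAACAA was present in 1 of 30 (3.33%, against 2.23% of all promoters) and the forkhead motif GTAAACA in 2 of 30 (6.67%, against 3.78%), on either strand. The single CAAAACAA match was in Igfbp1, here chr14:86261085-86261234 on the plus strand (-192 to -43), and GTAAACA was found in Insr and Cyp4a3, of which chr5:134352309-134352458 on the minus strand (-222 to -73) is shown, with the match read from the other strand. Capitals mark the motif. These shares describe letters, not binding.
Igfbp1: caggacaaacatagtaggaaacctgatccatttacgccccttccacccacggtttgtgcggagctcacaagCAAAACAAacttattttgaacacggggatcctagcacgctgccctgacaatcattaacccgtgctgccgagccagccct
Cyp4a3: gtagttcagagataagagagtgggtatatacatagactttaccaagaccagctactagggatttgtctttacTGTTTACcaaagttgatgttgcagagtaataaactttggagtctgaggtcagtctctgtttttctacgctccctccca

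**Figure D3:**
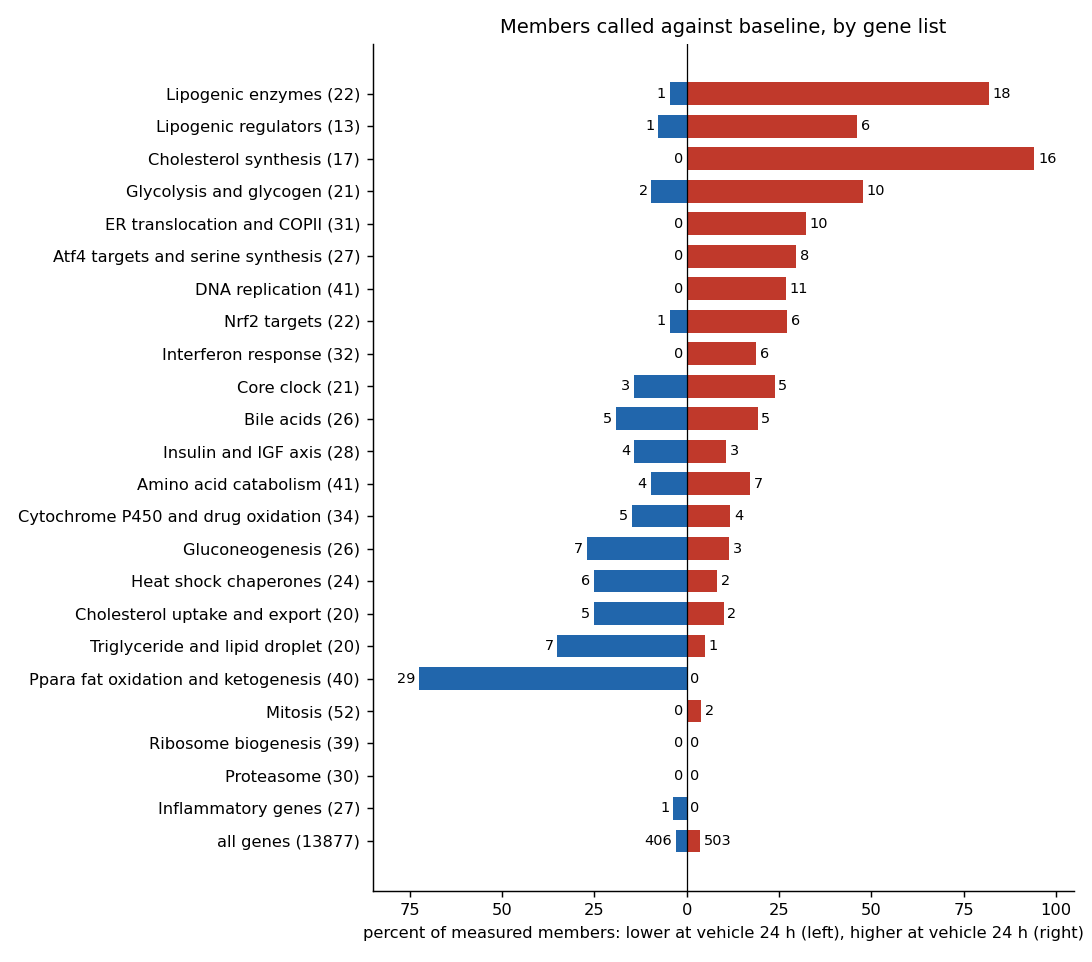
Bars give the percent of each list's measured members (number in parentheses) that were higher (red, right) or lower (blue, left) at vehicle 24 h than at baseline, with the counts at the bar ends. Cholesterol synthesis (16 of 17 higher), lipogenic enzymes (18 of 22 higher) and fat oxidation (29 of 40 lower) stand furthest from the bottom bar of all genes (503 higher and 406 lower of 13877).

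Bile acid synthesis changed at its branch points. Cyp7a1, the rate-limiting enzyme of the pathway, measured 12.63, 12.06, 12.34, 11.79 and 12.23 in vehicle 24 h livers and 7.73, 7.32, 7.13, 8.52 and 8.36 in baseline livers (4.40 ± 0.26, 21.1-fold, adjusted p = 2.39e-07). Cyp8b1, the 12-hydroxylase that directs synthesis to cholic acid, measured 11.42, 9.80, 11.83, 10.58 and 11.05 at vehicle 24 h and 13.41, 13.65, 13.59, 13.53 and 13.87 at baseline (-2.67 ± 0.30, adjusted p = 4.39e-05). The groups did not overlap for either gene. Nr0b2, the SHP repressor that bile acids induce and that represses Cyp7a1, rose with it (2.32 ± 0.22), and Akr1d1, a later step, rose by 1.01 ± 0.13. In the list of 26 measured bile acid genes (28 listed), 5 rose and 5 fell. Transport changed on both faces of the hepatocyte, with Abcb4, which exports phospholipid to bile, lower (-2.03 ± 0.11), the uptake carrier Slco1b2 lower (-0.83 ± 0.09) and Slco1a2 higher (1.45 ± 0.13). Slc27a2, the acyl-CoA synthetase and fatty acid carrier, fell by 1.01 ± 0.06.

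Serine synthesis rose strongly. Phgdh, the first enzyme of serine synthesis from glycolysis, measured 9.81, 8.71, 10.68, 10.73 and 10.12 at vehicle 24 h and 6.97, 5.45, 7.04, 4.84 and 5.35 at baseline (4.08 ± 0.48, 16.9-fold, adjusted p = 6.76e-05). The spread at baseline was wide (SD 1.01), yet the groups did not overlap. Psat1 (3.69 ± 0.19) and Psph (1.51 ± 0.16), which complete the pathway, rose, as did Shmt2, which moves the serine carbon into folate in mitochondria (1.11 ± 0.09), the asparagine synthetase Asns (2.82 ± 0.21) and the proline enzyme Pycr1 (0.95 ± 0.12). Of 27 measured Atf4 targets and serine genes (29 listed), 8 rose and 0 fell, but the median was 0.12. In the same list 19 members did not pass, with the cystine carrier Slc7a11 at 0.45 ± 0.13 and the transcription factor Atf5 at -0.50 ± 0.13. Atf4 itself was close to the limit (0.63 ± 0.13) and did not pass without vehicle 24 h replicate 3 (0.54) or under either ribosomal centring (0.56 and 0.54).

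Among 32 measured translation and tRNA charging genes (38 listed), 6 rose and 1 fell, and 2 fell under either ribosomal centring, with array weights, and without vehicle 24 h replicate 1 or 5 or baseline replicate 4 or 5. The rises were in aminoacyl-tRNA synthetases and were led by Cars (1.44 ± 0.16) and Yars (1.02 ± 0.10), with Lars (0.81 ± 0.10), Iars (0.79 ± 0.11) and Aars (0.74 ± 0.10) next, while Eif4b, an initiation factor, fell (-0.80 ± 0.06). After the values were seen, promoters of the Atf4 and serine list were searched for the amino acid response motif in the forms TGATGAAA and TGATGCAA. TGATGAAA was present in 1 of 26 (3.85%, against 1.13% of all promoters), that of Slc7a1, which was not called. TGATGCAA was present in 3 of 26 (11.5%, against 0.795% of all promoters), those of Pycr1, Chac1 and Herpud1. Of these 3, only Pycr1 was called, and chr10:106420865-106421014 on the minus strand (-202 to -53) of its promoter is shown with the match in capitals.
Pycr1: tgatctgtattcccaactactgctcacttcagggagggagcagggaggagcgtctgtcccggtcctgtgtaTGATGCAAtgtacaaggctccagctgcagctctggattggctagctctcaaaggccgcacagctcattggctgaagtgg

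Genes for the entry of new proteins into the secretory pathway were called higher only, and heat shock genes were called mostly lower. Of 31 measured genes of translocation into the endoplasmic reticulum and of COPII vesicles (35 listed), 10 rose and 0 fell (median 0.37). Sec61b, a subunit of the translocation channel, measured 11.93 to 12.23 at vehicle 24 h and 10.28 to 10.87 at baseline (1.48 ± 0.12), and Ssr2 (0.94 ± 0.08), Sec23b (0.93 ± 0.11) and Sec61a1 (0.78 ± 0.10) rose. In the list of chaperones of the endoplasmic reticulum (32 measured), 7 rose and 3 fell, and the number that rose was 4 under either ribosomal centring or without baseline replicate 5. Derl2 rose by 0.81 ± 0.06 and Sel1l fell by 0.76 ± 0.06, and both belong to the machinery that removes misfolded proteins. Of 24 measured heat shock genes, 2 rose and 6 fell (median -0.33). The small heat shock protein Hspb1 (-1.14 ± 0.15), Hsph1 (-0.87 ± 0.14) and Hspa1b (-0.99 ± 0.19) fell, with Hspa1b of vehicle 24 h replicate 5 (8.03) inside the baseline range, and the collagen chaperone Serpinh1 rose (0.82 ± 0.10). No gene of ribosome biogenesis (39 measured) or of the proteasome (30 measured) passed in limma. An unadjusted limma p under 0.05 was found for 16 and 13 of them, and for 4890 of all 13877 genes. Under either ribosomal centring 1 proteasome gene passed as lower. With array weights, and without vehicle 24 h replicate 1 or 5 or baseline replicate 2 or 4, 1 proteasome gene also passed as lower. The number of ribosome biogenesis genes called higher was 1 with cyclic loess and without vehicle 24 h replicate 4 or baseline replicate 1, 3 or 4, and 2 without vehicle 24 h replicate 2.

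Clock genes differed between the groups although they were sampled at the same nominal time of day. Of 21 measured core clock and output genes (23 listed), 5 rose, 3 fell and 13 did not pass, a share of 38.1% against 6.55% of all genes. Per2, a repressor of the clock, measured 9.09, 9.54, 8.54, 8.85 and 8.22 at vehicle 24 h and 7.85, 7.43, 7.75, 7.59 and 7.35 at baseline (1.25 ± 0.21, adjusted p = 0.000768), with no overlap. Nr1d2 (REV-ERB beta), which represses the activator Arntl, rose by 0.88 ± 0.13, the output factor Hlf by 0.71 ± 0.08, and Usp2, a deubiquitinase of clock proteins, by 1.00 ± 0.17. Bhlhe40, a repressor that also responds to nutrients, rose by 1.37 ± 0.33, although replicates 3 (7.64) and 5 (7.53) of vehicle 24 h lay at or below the highest baseline animal (7.65).

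The 3 clock genes that fell are nearer to the limit. Arntl (BMAL1), the activator of the clock, measured 8.48, 7.61, 7.95, 8.12 and 8.56 at vehicle 24 h and 8.90, 8.94, 8.84, 8.80 and 8.74 at baseline (-0.70 ± 0.15, adjusted p = 0.00468), and without vehicle 24 h replicate 2 it did not pass (-0.56). Its partner Npas2 was lower by 0.74 ± 0.22 and did not pass without vehicle 24 h replicate 2 (-0.59) or 3 (-0.71), or without baseline replicate 4 (-0.57) or 5 (-0.71). Nfil3, which opposes the PAR factors, was lower by 0.59 ± 0.10, just past 1.5-fold, and did not pass without vehicle 24 h replicate 2 (-0.55) or 5 (-0.54) or without baseline replicate 1 (-0.57), 2 (-0.58) or 3 (-0.58). Replicate 2 of vehicle 24 h had the highest Per2 and Nr1d2 and the lowest Arntl and Npas2 of its group. In Dbp, the strongest output gene of the liver clock, the same animal measured 8.94, against 6.76, 7.66, 6.95 and 6.94 in the others and 6.96 to 7.57 at baseline. The mean difference in Dbp was 0.10 ± 0.35 with a 95% interval of -0.66 to 0.85, and it turned to -0.28 without that animal and to -0.0025 without baseline replicate 4.

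Of the other clock genes, Nr1d1 (0.55 ± 0.12) and Rora (0.50 ± 0.09) lay just under 1.5-fold, and Nr1d1 passed without vehicle 24 h replicate 4 (0.61), baseline replicate 2 (0.60) or baseline replicate 4 (0.60). Clock (-0.41 ± 0.07), Cry1 (-0.34 ± 0.13), Per1 (0.28 ± 0.15), Per3 (0.27 ± 0.09), Cry2 (0.13 ± 0.06), Tef (0.10 ± 0.09), Csnk1e (-0.08 ± 0.05), Bhlhe41 (0.04 ± 0.07) and Csnk1d (0.03 ± 0.07) were not called. Noct, a clock-controlled phosphatase outside the list, rose by 3.26 ± 0.44, with a mean of 9.39 ± 0.66 at vehicle 24 h and 6.13 ± 1.00 at baseline (SD, n = 5 each). The E-box CACGTG, to which clock activators bind, was present in 3 of 17 clock promoters (17.6%, against 6.42% of all), those of Bhlhe40, Tef and Bhlhe41. For comparison, it was found in 3 of 31 lipogenic promoters (9.68%) and 3 of 17 glycolysis and glycogen promoters (17.6%), both searched after the values were seen. Bhlhe40 was the called clock gene with a match, and chr4:143174200-143174349 on the plus strand (-250 to -101) is shown with the E-box in capitals.
Bhlhe40: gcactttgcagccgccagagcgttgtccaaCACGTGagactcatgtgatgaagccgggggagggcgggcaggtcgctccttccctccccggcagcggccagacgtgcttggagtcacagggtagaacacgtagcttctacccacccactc

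**Figure D4:**
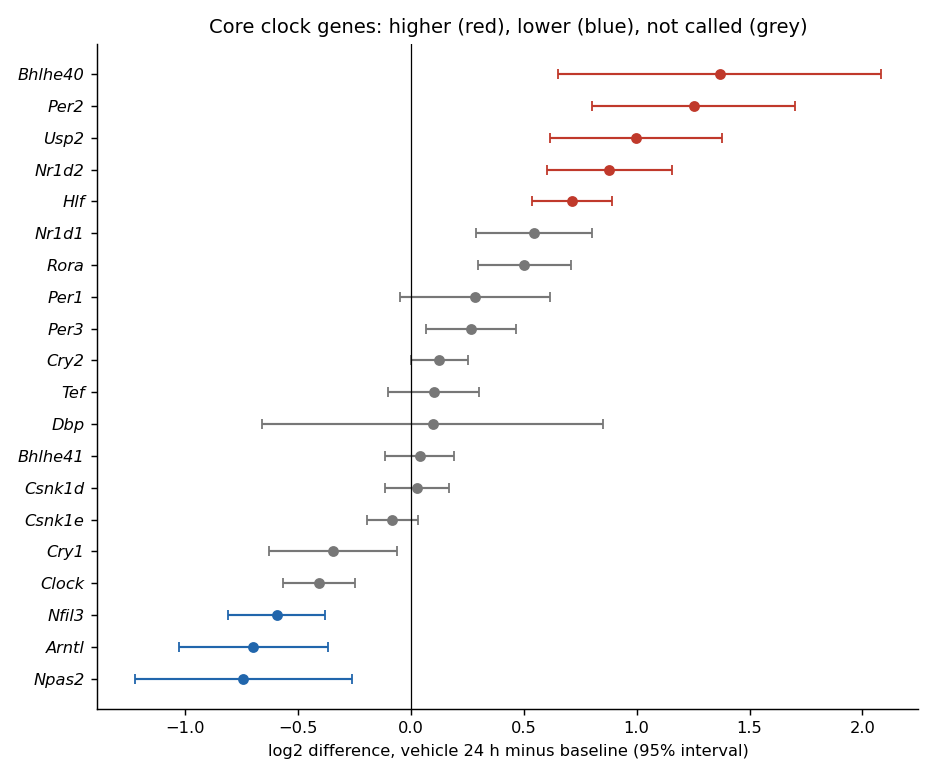
Each row is 1 of 20 of the 21 measured clock genes, ordered by its difference. Points are the log2 difference, vehicle 24 h minus baseline, and bars are 95% intervals from the limma fit. The 5 red points were called higher, from Bhlhe40 (1.37) to Hlf (0.71), the 3 blue points lower, and Dbp has the widest interval (-0.66 to 0.85).

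DNA replication and mitosis genes gave different counts. Of 41 measured replication genes (49 listed), 11 rose and 0 fell, with a median of 0.41. Mcm6, a subunit of the replicative helicase, measured 7.84, 6.56, 7.36, 8.88 and 7.70 at vehicle 24 h and 5.57, 5.61, 5.64, 5.41 and 5.33 at baseline (2.16 ± 0.32, 4.46-fold, adjusted p = 0.000335). Replicate 4 was the highest vehicle 24 h animal and replicate 2 the lowest, and all 5 lay above baseline. Mcm4 (1.39 ± 0.22), Mcm5 (0.80 ± 0.12), Mcm2 (0.77 ± 0.18), the primase Prim1 (1.21 ± 0.27), the clamp loader Rfc4 (0.89 ± 0.13), Timeless, which protects replication forks (1.18 ± 0.12), and the thymidine kinase Tk1 (0.70 ± 0.08) rose. Ccnd1, the cyclin that starts the cell cycle, rose by 1.15 ± 0.26, with replicate 2 of vehicle 24 h (8.73) below the highest baseline animal (9.09).

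Of 52 measured mitosis genes (68 listed), 2 rose and 0 fell, which is 3.85% against 6.55% of all genes, and the median was -0.08. Under either ribosomal centring 1 was higher and 1 lower, and 1 was also called lower without vehicle 24 h replicate 4. The 2 were Cks1b, a small partner of cyclin-dependent kinases (1.05 ± 0.06), and Cenpk of the kinetochore (0.60 ± 0.17), which did not pass without vehicle 24 h replicate 1 (0.55), vehicle 24 h replicate 4 (0.45) or baseline replicate 5 (0.57). Ccnb1, the mitotic cyclin, did not pass and was at -0.38 ± 0.10. The CHR element TTTGAA, which represses mitotic genes outside division, was present in 31 of 48 promoters of this list (64.6%, against 18.3% of all), and CCAAT in 36 of 48 (75%, against 37.5%). Cks1b is shown at chr2:177135375-177135524 on the minus strand (-191 to -42), with both matches to the CHR in capitals, the first read from the other strand.
Cks1b: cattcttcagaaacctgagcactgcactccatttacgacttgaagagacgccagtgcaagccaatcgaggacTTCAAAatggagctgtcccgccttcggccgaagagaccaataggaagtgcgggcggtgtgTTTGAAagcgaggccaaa

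Detoxification genes moved in both directions. Of 22 measured Nrf2 targets (30 listed), 6 rose and 1 fell, a share of 31.8% against 6.55% of all genes. Gsta3, a glutathione transferase, rose by 1.97 ± 0.31, the aldehyde reductase Akr7a3 by 1.92 ± 0.17, the epoxide hydrolase Ephx1 by 1.11 ± 0.08, and Gclm and Gclc, which together form the rate-limiting ligase for glutathione, by 1.04 ± 0.17 and 0.79 ± 0.13. Of 34 measured cytochrome P450 and drug oxidation genes, 4 rose and 5 fell (26.5% called). Cyp2c22 measured 13.42 to 13.84 at vehicle 24 h and 11.59 to 12.26 at baseline and rose 3.03-fold, Cyp2j4 fell by 1.71 ± 0.11, and Por, the reductase that supplies electrons to these enzymes, fell by 1.30 ± 0.16. The drug-sensing receptors Nr1i2 (PXR) and Nr1i3 (CAR) fell by 0.80 ± 0.12 and 0.91 ± 0.12. Cyp2e1, the main enzyme that activates acetaminophen, did not pass (-0.31 ± 0.06).

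Hamp, the hepcidin gene that limits iron uptake, measured 12.49, 11.61, 12.48, 12.22 and 12.22 at vehicle 24 h and 9.87, 8.61, 9.83, 9.45 and 9.39 at baseline (2.77 ± 0.23, 6.83-fold, adjusted p = 4.38e-06). Of 29 acute phase genes 13.8% were called, against 6.55% of all genes. Hamp was the 1 that rose, a count near the 3.62% of all genes that rose. Lbp, which binds endotoxin (-1.37 ± 0.19), Serpina3n (-0.76 ± 0.11) and the cytokine receptor Il6st (-0.71 ± 0.11) fell. Id3, which like Hamp responds to bone morphogenetic proteins, fell by 0.71 ± 0.13. Of 27 inflammatory genes, 0 rose and 1 fell (3.7% called). The 1 was Il1b (-0.67 ± 0.15, or -0.57 and not called without baseline replicate 1). Of 32 measured interferon response genes (39 listed), 6 rose and 0 fell (18.8% called). Among them were Ifi27l2b at 1.84 ± 0.19 and the immunoproteasome subunit Psmb9 at 1.36 ± 0.18. Without vehicle 24 h replicate 5 the number that rose was 12, and the mean level of the 32 genes was 8.01 to 8.90 at vehicle 24 h and 7.88 to 8.30 at baseline. Beside these counts, the mean level of 12 Kupffer cell and macrophage markers was 8.86 to 9.26 at vehicle 24 h and 9.06 to 9.57 at baseline, and the part of these cells in the results was not tested.

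Several of the largest differences lay outside the groups described above. Tsku, a secreted protein of the liver, measured 11.21 to 11.72 at vehicle 24 h and 7.96 to 8.62 at baseline (3.26 ± 0.12), and Car3, a carbonic anhydrase, measured 12.98 to 13.86 at vehicle 24 h and 10.35 to 11.21 at baseline (2.77 ± 0.19). Aldh1b1, a mitochondrial aldehyde dehydrogenase, rose by 3.52 ± 0.30. Rab30, a small GTPase, measured 6.38, 6.28, 6.21, 6.28 and 6.14 at vehicle 24 h and 10.14, 9.81, 9.92, 9.07 and 10.17 at baseline (-3.56 ± 0.17). The decreases also held Cgref1 (-3.22 ± 0.24), Aig1 (-2.95 ± 0.06), Vnn1 (-2.93 ± 0.14), Qpct (-2.83 ± 0.30), the kinase Nim1k (-2.73 ± 0.14), the mitochondrial carrier Slc25a30 (-2.62 ± 0.31) and Faxdc2 (-2.52 ± 0.30). These genes were chosen among calls whose groups did not overlap, so their lack of overlap is not a further result.

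The vehicle groups at 3 and 9 h showed when the levels at 24 h were reached. Both comparisons share the vehicle 24 h arrays, and differences from baseline at each time share the baseline arrays, so values are given side by side. Against vehicle 9 h, 213 genes (1.53% of those tested) were called, 107 higher and 106 lower at vehicle 24 h, and against vehicle 3 h 705 genes (5.08%), 408 higher and 297 lower. The comparison with vehicle 9 h depended on the scale, since centring on 2 ribosomal genes moved the median of all genes by 0.321 and gave 739 higher and 39 lower, while centring on 10 ribosomal genes moved it by 0.0955 and gave 185 and 72. Cyclic loess gave 119 and 93. Against vehicle 3 h, the splits under the same centrings were 500 and 238, and 452 and 269, and cyclic loess gave 453 and 261.

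Of the 22 measured lipogenic enzymes, 8 were higher at vehicle 24 h than at vehicle 9 h and 0 were lower. Fasn, Acacb and Tkt are among the 8, and each lost that call in fits that left out 1 animal. Fasn lost it without vehicle 24 h replicate 1, 2, 4 or 5, and without vehicle 9 h replicate 2, 4 or 5. The Fasn call was also lost with robust empirical Bayes and with the replicate block. Acacb lost it without vehicle 24 h replicate 4 or vehicle 9 h replicate 4, and Tkt without vehicle 24 h replicate 2. Fasn averaged 7.12, 9.73, 10.93 and 11.95 at 0, 3, 6 and 9 h, and measured 12.54 to 13.39 at 24 h. Scd averaged 10.58 at baseline and 9.32, 11.05, 13.09 and 14.37 at 3, 6, 9 and 24 h, so that its 3 h average lay below its baseline average. Against vehicle 9 h, Scd (1.28 ± 0.27), Fabp5 (1.40 ± 0.15), Tkfc (1.27 ± 0.14), Me1 (1.26 ± 0.21) and Pklr (1.21 ± 0.25) were higher at vehicle 24 h. The Scd call was lost when all arrays of the series were fitted together. In contrast Srebf1 averaged 11.12, 12.03, 11.90 and 11.34 at 3, 6, 9 and 24 h, and its difference from vehicle 9 h was not called (-0.56 ± 0.16, adjusted p = 0.0548). In the comparison with vehicle 3 h the largest increases were Pnpla3 (6.03 ± 0.39), Scd (5.05 ± 0.20), Fabp5 (4.48 ± 0.12) and Phgdh (4.35 ± 0.37).

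Another set of genes had averages that lay furthest from baseline at 3 h and nearer to it at 24 h. Pck1 averaged 13.90, 10.28, 11.35, 12.46 and 13.68 at 0, 3, 6, 9 and 24 h, and was 3.40 ± 0.31 higher at vehicle 24 h than at vehicle 3 h. Igfbp1 averaged 12.66, 7.60, 8.78, 10.14 and 11.45, a difference of 3.86 ± 0.44 between vehicle 24 h and 3 h. Insulin is known to repress Pck1 and Igfbp1. The Pck1 values at 24 h, which overlapped baseline, thus followed a level at 3 h far below it. Angptl8, an insulin-induced inhibitor of lipoprotein lipase, averaged 8.18, 11.88, 11.78, 11.62 and 9.16 and was lower at vehicle 24 h than at vehicle 9 h (-2.46 ± 0.31) and vehicle 3 h (-2.73 ± 0.28). Irs2, with averages of 9.71, 7.58, 7.68, 7.84 and 7.91, lay at 24 h nearer to its 3 h average than to baseline. Rab30, with 9.82, 6.37, 6.32, 6.08 and 6.26, lay at 24 h close to its 3 h average.

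The averages of fat oxidation genes differed in their order over the times sampled. Cpt1a averaged 12.62, 11.34, 9.42, 8.31 and 9.75 at 0, 3, 6, 9 and 24 h and was higher at vehicle 24 h than at vehicle 9 h (1.44 ± 0.20, adjusted p = 0.00161). Eci1 averaged 13.89, 13.74, 13.62, 13.22 and 10.51, so that most of the difference lay between the 9 h and 24 h groups (-2.71 ± 0.12 against vehicle 9 h, adjusted p = 1.46e-07). Ech1 (-2.03 ± 0.11), Vnn1, which breaks down pantetheine (-2.05 ± 0.16), Aig1 (-2.12 ± 0.06) and Cyp4a1 (-1.55 ± 0.10) were also lower at vehicle 24 h than at vehicle 9 h, and Acot1 most of all (-2.91 ± 0.33).

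Other genes differed between 9 h and 24 h, and some of these had also changed earlier. Zfp354a, a zinc finger gene, averaged 8.86, 8.32, 8.04, 8.65 and 10.78 at 0, 3, 6, 9 and 24 h and had the largest increase against vehicle 9 h (2.13 ± 0.23). Myc, the growth regulator, averaged 8.60, 6.77, 6.55, 7.22 and 9.07, and so lay below its baseline average from 3 to 9 h. It was higher at vehicle 24 h than at vehicle 9 h (1.85 ± 0.26) but not called against baseline (0.48 ± 0.27). Hspb1 averaged 8.17, 9.20, 8.75, 9.29 and 7.02 and was lower at vehicle 24 h than at vehicle 9 h (-2.26 ± 0.13). The taurine carrier Slc6a6 (-1.97 ± 0.21) and Tex49 (-1.65 ± 0.12) were lower than at vehicle 9 h. Rgs16, an inhibitor of G protein signals (1.61 ± 0.22), the asparaginase Aspg (1.48 ± 0.19), Mtmr7 (1.28 ± 0.22) and Nmrk1, which makes NAD (1.26 ± 0.12), were higher. Against baseline, however, Rgs16 was lower at vehicle 24 h (-1.02 ± 0.35). That call was lost without vehicle 24 h replicate 1, 3, 4 or 5, and without baseline replicate 1, 4 or 5. It was also lost with array weights, cyclic loess, robust empirical Bayes and the replicate block.

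**Figure D5:**
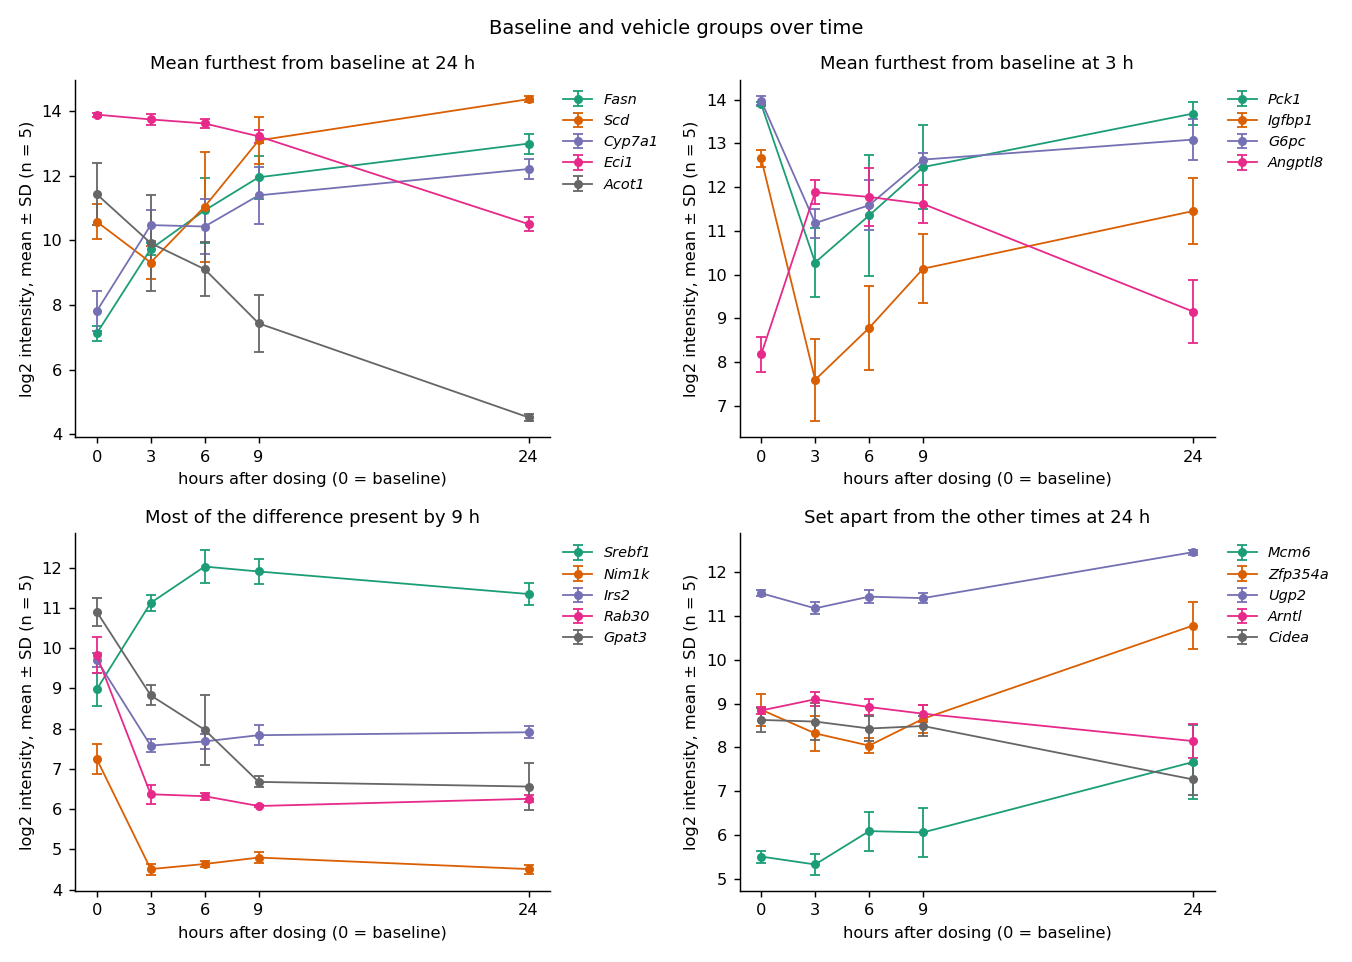
Each line is 1 gene and each point the mean log2 intensity of 5 animals at baseline (0 h) or 3, 6, 9 or 24 h after vehicle, with bars of 1 SD. The panels group genes by when their mean differs from baseline. Eci1 and Acot1 (upper left) lie lowest at 24 h, Pck1 and Igfbp1 (upper right) lie furthest from baseline at 3 h, Irs2 and Rab30 (lower left) have changed by 3 h, and Zfp354a (lower right) has its highest mean at 24 h.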

How the data were processed

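Liver RNA of single rats was measured on Affymetrix arrays, 1 array per animal. Per the labels and the study's methods, the authors summarised the probes with a custom gene-level BrainArray definition and normalised them by RMA (affy 1.64.0, R 3.6.1), and the deposited values are log2 intensities. Gene names came from the deposited gene sheet, and 13530 of 13877 genes matched the RefSeq table. The 45 value columns of that sheet, whose animal codes are not explained, were not used. Each comparison was fitted on its own arrays with limma 3.58.1 (R 4.3.3, lmFit and eBayes) and called at a Benjamini-Hochberg adjusted p under 0.05 and at least 1.5-fold, with no filter on dim genes. The fit was tested on simulated data. Promoters were read from the RefSeq table (GRCr8). The members and gene lists were chosen with earlier results of these data known. Genes named are the 20 largest non-overlapping calls each way (10 each way against vehicle 9 h and 3 h), called list members with up to 4 uncalled ones per list, and the clock, lipogenic regulator and insulin genes. Some genes are not reported here. Alternatives were array weights, cyclic loess, 2 centrings, a replicate block, other thresholds, a filter on the dimmest genes, limma treat and leaving out each animal. The number of arrays limits the precision.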

Additional observations from a re-analysis of the deposited data

Results flagged for a closer look

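In single genes, 1 animal lay apart from the other 4 of its group by more than the 0.71 of the group's range that Dixon's 95% limit allows, which chance alone gives in about 1 of 20 groups. Of 490 groups of 5 checked, 29 (5.92%) held such an animal, close to that rate. At vehicle 24 h these were Acot3 in replicate 1 (5.81, others 6.34 to 6.50), Ccnd1 in replicate 2 (8.73, others 9.45 to 9.71) and Csnk1d in replicate 5 (9.41, others 9.08 to 9.16). Further values at vehicle 24 h were Hadhb in replicate 1 (11.94, others 11.63 to 11.71), Igfbp4 in replicate 2 (10.61, others 11.18 to 11.37) and Igfbp5 in replicate 1 (6.82, others 7.08 to 7.19). Other single values at vehicle 24 h were Lbp in replicate 2 (9.34, others 10.18 to 10.51), Mcm5 in replicate 4 (7.44, others 6.70 to 6.78) and Pc in replicate 2 (10.95, others 11.18 to 11.23). Tagln in replicate 1 (6.81, others 7.12 to 7.25) also lay apart. At baseline these were Cidea in replicate 1 (9.10, others 8.41 to 8.58), Csnk1d in replicate 5 (9.27, others 9.11 to 9.14) and Ddit4 in replicate 5 (7.33, others 6.65 to 6.76). Further values at baseline were Eif4ebp2 in replicate 2 (9.51, others 9.80 to 9.92), Fasn in replicate 1 (7.53, others 6.95 to 7.10) and G6pc in replicate 4 (13.79, others 13.99 to 14.06). Other single values at baseline were Ggps1 in replicate 4 (5.56, others 5.33 to 5.40), Gpi in replicate 2 (9.84, others 10.26 to 10.36) and Herpud1 in replicate 4 (10.74, others 11.22 to 11.36). Apart from their baseline group also lay Lrat in replicate 1 (7.11, others 7.58 to 7.72), Pdk4 in replicate 4 (8.90, others 9.56 to 9.78) and Psat1 in replicate 2 (7.16, others 6.36 to 6.43). Pfkl in replicate 5 (8.76, others 8.22 to 8.34) did so too. In the same way baseline held Psmb9 in replicate 5 (6.75, others 7.26 to 7.44), Slc6a6 in replicate 1 (7.75, others 8.66 to 8.90) and Slc7a11 in replicate 4 (5.50, others 5.39 to 5.40). The rest at baseline were Sqle in replicate 1 (8.84, others 7.84 to 8.12), Ugp2 in replicate 2 (11.40, others 11.54 to 11.57) and Zfp354a in replicate 5 (9.49, others 8.59 to 8.78). The change from baseline differed between vehicle 24 h and vehicle 9 h for 213 genes and between vehicle 24 h and vehicle 3 h for 705 genes, as tested directly between the vehicle groups.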

How the results depend on the processing

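The replicate block, which pairs animals of the same number, gave 509 higher and 405 lower genes at vehicle 24 h against baseline, 111 and 109 against vehicle 9 h, and 406 and 300 against vehicle 3 h. The numbers share no stated origin. The correlations of same-numbered deviations ran from -0.0026 to 0.222, with no reference for what chance gives, so they do not settle whether the numbers pair animals. Among named genes the block changed 5 calls, as Fasn and Gpt were lost against vehicle 9 h, and Rgs16 and Dcn were lost and Aspg gained against baseline. With no fold limit 1744 genes were higher and 1790 lower at vehicle 24 h than at baseline, 423 and 623 against vehicle 9 h, and 1446 and 1915 against vehicle 3 h. At 2-fold the counts were 170 and 145, 35 and 23, and 126 and 91 in the same order of comparisons, and with limma treat, which tests against the fold limit, 144 and 129, 4 and 11, and 87 and 64. An adjusted p under 0.01 left 60 genes higher than at vehicle 9 h. Centring on the 2 listed ribosomal genes gave 739 higher and 39 lower against vehicle 9 h, and the added centring on 10 ribosomal genes, chosen after the data were seen, gave 185 higher. Leaving out any 1 animal kept each of these counts within 1.5 times its main value. Genes close to 0 turned their sign. Centring on the 2 genes and on the 10 gave -0.0381 and -0.0557 for Bhlhe41, -0.0496 and -0.0672 for Csnk1d, -0.0759 and -0.0935 for Igf1r, -0.0264 and -0.044 for Igfbp4, -0.0606 and -0.0782 for Igfbp5, -0.0388 and -0.0564 for Trib1 and -0.0126 and -0.0302 for Trib2. Grb10 was 0.0062 with array weights, and Sesn1 0.0132 and Sesn3 5e-04 with cyclic loess. When 1 animal was left out, the difference ran from -0.0072 to 0.0717 for Bhlhe41, -0.0283 to 0.0553 for Csnk1d, -0.28 to 0.27 for Dbp, -0.0445 to 0.0145 for Grb10, -0.0317 to 0.037 for Igf1r, -0.006 to 0.18 for Igfbp4, -0.0228 to 0.0787 for Igfbp5, -0.0727 to 0.05 for Sesn1 and -0.0793 to 0.0464 for Sesn3. The cause of these changes was not tested. Of 245 named genes, 17 changed their call against baseline when 1 animal was left out, 13 by losing it. Of 58 named genes called against vehicle 9 h, 10 lost the call in this way, and of 140 called against vehicle 3 h, 15 did. Array signals near the top and bottom of the range limit the size of differences such as Scd and Acot1.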

Other observations

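Amino acid catabolism changed in both directions, with 7 of 41 measured members higher and 4 lower at vehicle 24 h (26.8% called, against 6.55% of all genes). Of the tryptophan pathway, Afmid measured 10.35 to 10.67 at vehicle 24 h and 8.68 to 9.31 at baseline (1.49 ± 0.11), and Kmo was higher by 1.11 ± 0.10. The glycine cleavage gene Gldc was higher by 0.93 ± 0.07, and Csad, which makes taurine from cysteine, by 1.39 ± 0.18, while Agxt, which handles glyoxylate (-1.06 ± 0.09), and Ahcy of the methionine cycle (-0.86 ± 0.05) were lower. In the urea cycle (9 measured, 22.2% called), Otc was higher (0.79 ± 0.08) and Asl lower (-1.47 ± 0.12).

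Of 32 measured autophagy genes, 0 were higher and 4 lower at vehicle 24 h (12.5% called, against 6.55% of all genes). Gabarapl1 measured 9.66 to 9.98 at vehicle 24 h and 10.63 to 10.88 at baseline (-0.95 ± 0.07), and Wipi1 (-0.83 ± 0.17), Nbr1 (-0.80 ± 0.13) and Atg2a (-0.68 ± 0.07) were lower as well. Of 25 measured secreted factors (28 listed), 3 were higher and 2 lower (20% called, against 6.55% of all genes). The largest increase among them was in Tsku (3.26 ± 0.12). The activin subunit Inhba was higher (1.19 ± 0.18) and Inhbc lower (-1.08 ± 0.16). Of 20 measured growth hormone targets (25 listed), 2 were higher and 3 lower (25% called), with a median of 0.10. The number higher was 1 with array weights, under the centring on 10 ribosomal protein genes, and without vehicle 24 h replicate 4. It was also 1 without baseline replicate 1, 2, 3 or 5. The largest increase of the list was in Car3 (2.77 ± 0.19), while Socs2, which growth hormone induces, was lower (-1.01 ± 0.12). Of 15 stellate cell and fibroblast markers 20% were called, against 6.55% of all genes, with a median of 0.03 over the list. Lrat, which stores retinol (0.87 ± 0.14), and Tagln, a marker of contractile cells (0.62 ± 0.09), were higher. Dcn, a matrix proteoglycan, was lower (-0.69 ± 0.19). Tagln was not called under either ribosomal centring (0.54 and 0.52) or without vehicle 24 h replicate 2 (0.58) or baseline replicate 3 (0.57), nor Dcn with the replicate block or without vehicle 24 h replicate 4 (-0.58). Of 9 cholangiocyte markers 2 were higher and 0 lower (22.2% called). The 2 were Krt19 (0.79 ± 0.20, groups overlapping) and Epcam (0.68 ± 0.12). The part of these cells in other results was not tested.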
